A study of Sus scrofa with 19 samples.

Results

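The 3 libraries titled RemoLV and the 3 libraries titled Hyper, 6 of the 19 libraries of a porcine study of myocardial fibrosis, were compared directly, chosen by the titles of their count files. All 19 animals were female large white pigs, with 1 library of poly(A)-selected RNA per pig, so that each library is a biological replicate. RemoLV pigs underwent a reperfused anterior infarction, in which a balloon occluded the mid left anterior descending artery for 90 min, and tissue was labelled as posterior wall, remote from the infarct. Hyper pigs carried an artificial stenosis of the aortic isthmus made with a bare metal stent of 9 mm diameter, which loads the left ventricle (LV) with pressure, and tissue was labelled as anterior wall. In both groups the follow-up was 6 months, and no drug treatment is given for either in the labels. The other libraries came from 3 Control pigs with 6 months of follow-up and from 10 pigs given 60 mg/m2 doxorubicin (DOX) or its liposomal form Myocet (MYO) in 3 cycles, sampled at 3 months, all from the anterior wall by label. Model and wall therefore change together between RemoLV and Hyper and cannot be told apart.

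The 2 deposits of the study name these libraries differently. When the ranks of the values in the authors' table were matched with the count files, the 3 columns named Control proved to hold the libraries whose files are titled RemoLV, and the 3 columns named RemoLV those whose files are titled Control. The Hyper columns hold the count files titled Hyper. The same 6 libraries would thus be read as Control vs. Hyper under the table. The study reported that RemoLV and Hyper clustered together, apart from Control. By title, Hyper libraries correlated at 0.953 to 0.987 with Control and at 0.910 to 0.926 with RemoLV libraries, so that the published pattern follows the names of the table. Nothing in the files decides which names give the true origin of the libraries. RemoLV and Hyper are used here as library labels only.

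The labelled tissue was checked against chamber markers before any other result. The RemoLV libraries went against an LV label. MYL2, the regulatory light chain of ventricular myosin, had 18.58, 115.3 and 40.02 CPM (counts scaled to the same effective total in each library) in RemoLV and 17204, 17028 and 13455 CPM in Hyper. MYL4, the essential light chain of atrial and fetal myosin, had 8130, 7348 and 6029 CPM in RemoLV and 0.550, 0.978 and 1.54 CPM in Hyper. In the other 13 libraries MYL2 ranged from 8975 to 18080 CPM and MYL4 from 0.594 to 21.9 CPM, so that RemoLV stood apart from every other library in both genes. Results are given for what was sequenced, and since all 3 RemoLV libraries share this pattern, none of them could be set aside to see the comparison without it.

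Atrial and ventricular myocytes build the same sarcomere from different isoforms. Ventricular myocytes use the light chains MYL2 and MYL3 and are held in their identity by the factors IRX4 and HEY2, whereas atrial myocytes use MYL4 and MYL7, secrete natriuretic peptides, express sarcolipin (SLN) and depend on NR2F2 and TBX5. The atrial wall is also richer in matrix and autonomic nerve, and the muscarinic potassium current through KCNJ3 and KCNJ5 is a hallmark of atrial and nodal cells.

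Sequence from the 120 bases before the curated RefSeq transcript start (assembly Sscrofa11.1) is shown for 5 genes, of which MYL2 and MYL3 were lower and SLN, TNNI1, slow skeletal and fetal troponin I, and NPPB, brain natriuretic peptide, were higher in RemoLV. Capitals mark TATTTTTA, a core bound by MEF2 factors, and GATAA, a core bound by GATA factors, searched on both strands (reverse complements TAAAAATA and TTATC). The letters were chosen after these stretches had been seen, and for MYL2 and TNNI1 only the bases around the match are shown. The MYL2 and TNNI1 stretches lie within the annotated span of their gene, since longer transcript models start further upstream.
MYL2, chr14:32213755-32213784, minus strand: ggtcatgggttTATTTTTAaacttgggggg
TNNI1, chr10:23800147-23800176, minus strand: cgggtctgttcTATTTTTAccagccagttg
MYL3, chr13:29735617-29735736, minus strand: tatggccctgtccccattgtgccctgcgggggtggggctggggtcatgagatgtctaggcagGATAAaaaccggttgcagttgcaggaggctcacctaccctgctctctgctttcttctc
NPPB, chr6:71931844-71931963, minus strand: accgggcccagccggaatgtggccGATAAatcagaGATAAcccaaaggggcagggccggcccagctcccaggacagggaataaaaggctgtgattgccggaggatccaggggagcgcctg
SLN, chr9:36242406-36242525, minus strand: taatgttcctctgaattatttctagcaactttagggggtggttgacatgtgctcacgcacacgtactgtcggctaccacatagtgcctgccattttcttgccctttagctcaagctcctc
The SLN stretch held neither core. The MEF2-type core began 95 bases before the start of MYL2 and 57 bases before that of TNNI1, which moved in opposite directions. The GATA core began 58 bases before the start of MYL3 and 96 and 85 bases before that of NPPB. Over 3980 windows of 120 bases before curated starts, 20 (0.503%) held TATTTTTA and 325 (8.17%) held GATAA. Among genes with such a window, TATTTTTA occurred for 2 of 91 DEGs (defined with the comparison) higher in RemoLV and 1 of 43 DEGs lower, and GATAA for 11 of 91 and 4 of 43. A match describes these letters only.

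Of 13552 genes tested, 4818 (35.6%) passed the FDR threshold, an adjusted p of at most 0.05 in edgeR's quasi-likelihood test with Benjamini-Hochberg adjustment. Of these, 2300 (17.0% of genes tested) were higher and 2518 (18.6%) lower in RemoLV. DEGs, which in addition changed by 2 or more on the log2 scale, numbered 668 (4.93%), and of these 475 (3.51%) were higher and 193 (1.42%) lower in RemoLV. Many DEGs had few counts, and when 10 counts were required in each of the 6 libraries 249 genes were DEGs, 156 higher and 93 lower. Log2 fold changes are RemoLV minus Hyper throughout, and ± after a log2 fold change gives its standard error. The direction of modest changes rests on the scaling. TMM scaling put the median log2 fold change of all genes at 0.01, whereas scaling by library totals put it at 0.36. With totals, 4123 genes were higher and 962 lower at the FDR threshold, and 684 DEGs were higher and 147 lower. List counts given under totals are to be read against these 4123 and 962 of 13552 genes, not against 17.0% and 18.6%. Totals of counts ranged from 9527710 to 16098496 in RemoLV and from 15634520 to 16359107 in Hyper. The correlation of log2 CPM was 0.974 to 0.980 between RemoLV libraries, 0.972 to 0.981 between Hyper libraries and 0.910 to 0.926 between a RemoLV and a Hyper library.

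**Figure D1:**
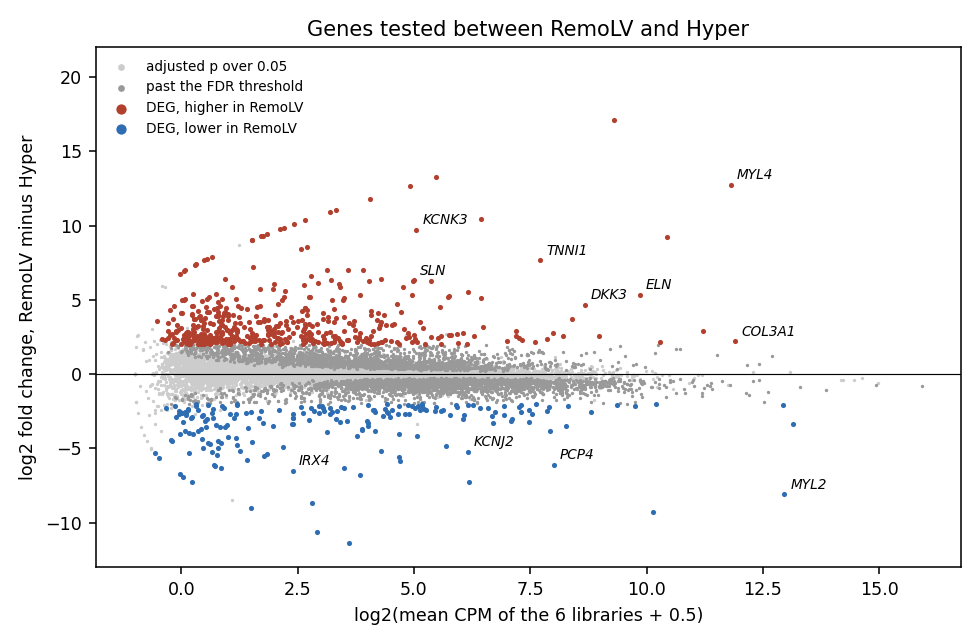
Log2 fold change (RemoLV minus Hyper) of the 13552 genes tested against their mean level in the 6 libraries, log2(mean CPM + 0.5). Red and blue points are the 475 DEGs higher and the 193 DEGs lower in RemoLV, dark grey points pass the FDR threshold alone, and MYL4 and MYL2 stand at high level on opposite sides.

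Ventricular genes were low in RemoLV as a group. Of 14 listed genes that mark ventricular over atrial myocardium, 11 were tested. Of these, 8 were lower (against 18.6% of all genes), 1 was higher and 2 did not pass, with a median log2 fold change of -3.34 (all genes 0.01). MYL2 (chromosome 14, 32205953 to 32213848) averaged 58.0 ± 50.8 CPM in RemoLV and 15896 ± 2116 CPM in Hyper (SD, n = 3 each), a log2 fold change of -8.10 ± 0.51 (adjusted p = 4.88e-09). Its 3 RemoLV values lay between 18.6 and 115 CPM and never approached the lowest Hyper value. MYL3, the ventricular essential light chain that slow skeletal muscle shares, fell less, from 6850 ± 1169 CPM in Hyper to 2579 ± 490 CPM in RemoLV (log2 fold change -1.41 ± 0.17, adjusted p = 7.45e-06).

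Transcription factors of the ventricle were low in RemoLV. IRX4, an Iroquois factor restricted to ventricular myocytes, had 0 to 2 counts in each RemoLV library and 8.38, 9.78 and 10.3 CPM in Hyper, at least 43.9-fold lower in RemoLV when set against the floor of 3 counts per library. HAND1, a bHLH factor of the left ventricle, had 0.633, 0.113 and 0 CPM in RemoLV and 17.5, 23.7 and 22.3 CPM in Hyper (log2 fold change -6.33 ± 0.39). HEY2, a Notch target that represses atrial genes in the ventricle, had 3.03, 2.54 and 4.99 CPM against 62.3, 54.1 and 71.5 CPM (log2 fold change -4.18 ± 0.39). In none of the 3 factors did the groups overlap, as in 48.0% of all genes tested. KCNJ2, the main subunit of the inward rectifier current, had 3.80, 5.30 and 1.69 CPM in RemoLV and 158, 158 and 97.2 CPM in Hyper (log2 fold change -5.21 ± 0.43). CPNE5, a copine on the same list, went the other way, with 47.7, 34.7 and 30.7 CPM in RemoLV against 2.41, 2.56 and 2.28 CPM in Hyper (log2 fold change 3.96). The 2 members that did not pass were FHL2 and the connexin GJA1, the latter with 616 to 657 CPM in RemoLV and 506 to 682 CPM in Hyper.

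Atrial genes were high in RemoLV. Of 20 listed genes, 14 were tested. Of these, 12 were higher (against 17.0% of all genes), 1 was lower and 1, STARD10, did not pass, with a median log2 fold change of 2.25. MYL4 (chromosome 12, 16774655 to 16792213) averaged 7169 ± 1062 CPM in RemoLV and 1.02 ± 0.498 CPM in Hyper (SD, n = 3 each), a log2 fold change of 12.76 ± 0.87 (adjusted p = 1.03e-08). Per kilobase of transcript, a measure that allows genes to be compared, RemoLV held 6500 CPM of MYL4 and 72.0 CPM of MYL2, and Hyper held 0.928 CPM of MYL4 and 19746 CPM of MYL2. The light chain pair was thus inverted between the groups.

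SLN, the small inhibitor of the sarcoplasmic reticulum calcium pump in atria, had 91.9, 43.7 and 50.7 CPM in RemoLV and 0.602 to 0.893 CPM in Hyper (log2 fold change 6.32 ± 0.63, adjusted p = 8.55e-07). NR2F2 (COUP-TFII), which holds atrial identity, had 70.0, 53.1 and 64.5 CPM against 18.8, 17.2 and 20.0 CPM (log2 fold change 1.74 ± 0.16). TBX5, a T-box factor of the atrial list that was also present in Hyper, had 101, 105 and 117 CPM against 21.5, 36.7 and 26.6 CPM (log2 fold change 1.93 ± 0.23). All 3 genes were separated without overlap between the groups, as were 48.0% of all genes tested. KCNK3, the TASK-1 potassium channel of atrial myocytes, had 78.2, 47.9 and 69.8 CPM in RemoLV and at most 2 counts in any Hyper library, at least 309.5-fold higher in RemoLV. PAM, a membrane protein of atrial secretory granules that amidates peptides, had 3420, 2204 and 2099 CPM against 842, 809 and 687 CPM (log2 fold change 1.72 ± 0.20). The lower member was MYH6, atrial alpha-myosin, with 22349 to 25986 CPM in RemoLV and 32955 to 41764 CPM in Hyper (log2 fold change -0.71 ± 0.17). It shares most of its sequence with the neighbouring MYH7, which no row was paired with, so that how reads were split between them is uncertain. MYL7, NPPA, KCNA5 and PLN were likewise not analysed here.

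**Figure D2:**
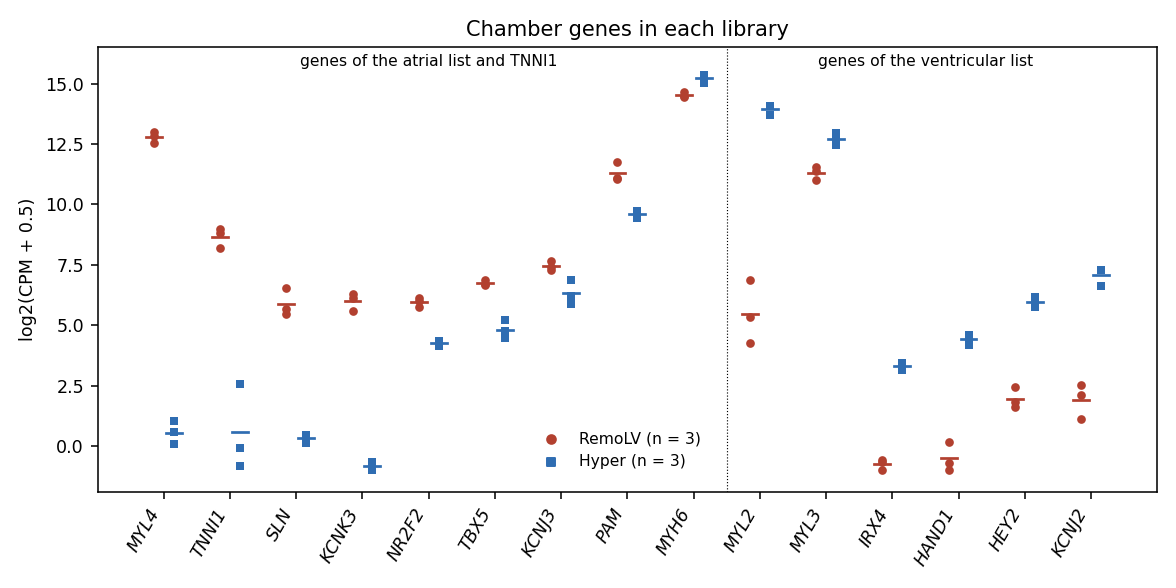
Level of chamber genes in each library, log2(CPM + 0.5), with red circles for the 3 RemoLV and blue squares for the 3 Hyper libraries and a bar at each mean. MYL4 lies between 6029 and 8130 CPM in RemoLV and at or below 1.54 CPM in Hyper, MYL2 shows the reverse, and MYH6 is lower in RemoLV by 0.71 on the log2 scale.

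Genes of nodal and conducting myocytes were higher in RemoLV for 8 of 13 tested members (61.5%, against 17.0% of all genes), with IRX3 lower and 4 not passing. SHOX2, a factor of the sinus node and sinus venosus, had 31.7, 37.3 and 70.8 CPM in RemoLV and 1.37, 1.43 and 2.55 CPM in Hyper (log2 fold change 4.69 ± 0.49). GJA5, connexin 40 of atria and fast conducting fibres, had 130, 62.7 and 119 CPM against 13.5, 14.1 and 19.6 CPM (log2 fold change 2.72 ± 0.32). HCN4, the pacemaker channel that defines nodal cells, stayed low, at 2.46, 1.13 and 0.891 CPM in RemoLV and 0 in Hyper, and was at least 7.08-fold higher. VSNL1, a calcium sensor, had 8.59, 14.3 and 11.9 CPM against 0 in all 3 Hyper libraries and was at least 55.1-fold higher. TBX3, the repressor that defines the nodes, did not pass. IRX3, which supports fast conduction in the ventricular Purkinje network, had 0.357 to 1.07 CPM in RemoLV and 39.4 to 55.8 CPM in Hyper (log2 fold change -5.84 ± 0.42).

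Transcription factors of chamber identity moved in both directions. Of 29 tested, 11 were higher (37.9%, against 17.0% of all genes) and 8 lower (27.6%, against 18.6%) in RemoLV, with a median log2 fold change of 0.04. Those higher included TBX5, TBX20, TBX2, TBX18, NR2F1, NR2F2, NKX2-5, MEIS1, SHOX2 and PRRX1, and those lower were IRX3, IRX4, IRX5, HEY2, HAND1, MEF2C, MEIS2 and PRDM16. GATA4, GATA6, HAND2, MEF2A and HOPX, which all working myocytes use, were among those that did not pass. MEF2A had 141 to 171 CPM in RemoLV and 133 to 203 CPM in Hyper (log2 fold change 0.02 ± 0.18), with overlapping libraries.

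Beyond light chains, the sarcomere differed by isoform. Of 16 tested myosin and troponin isoforms, 4 were higher (25.0%, against 17.0% of all genes) and 9 lower (56.3%, against 18.6%) in RemoLV, with a median log2 fold change of -0.58. TNNI1 (chromosome 10, 23788279 to 23800554) had 289, 456 and 502 CPM in RemoLV and 0.0687, 0.452 and 5.50 CPM in Hyper (log2 fold change 7.66 ± 0.87, adjusted p = 3.14e-06). Its Hyper values ranged widely, but the highest stayed far under the lowest in RemoLV. ACTA1, skeletal alpha-actin that is also expressed in loaded ventricle, had 1837, 3678 and 3334 CPM in RemoLV and 10293, 14231 and 13586 CPM in Hyper (log2 fold change -2.11 ± 0.24). TNNT2, cardiac troponin T of both chambers, had 6855 to 7470 CPM against 11284 to 13748 CPM (log2 fold change -0.83 ± 0.14). ACTC1, cardiac alpha-actin, had 8868 to 9809 CPM in RemoLV against 2622 to 4853 CPM in Hyper (log2 fold change 1.23 ± 0.45, adjusted p = 0.042), and this call was lost when any 1 of the 6 libraries was left out. MYH8, perinatal skeletal myosin, had 221, 34.7 and 8.91 CPM in RemoLV and 0 counts in Hyper. It varied so much among RemoLV libraries that only its presence is firm, and like other tandem myosin genes it can share reads with its neighbours.

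Genes that atrial and ventricular myocytes share were somewhat lower in RemoLV, with a median log2 fold change of -0.45. Of 17, 10 were lower (58.8%, against 18.6% of all genes) and 3 higher (17.65%, against 17.0%). Under totals the median became -0.10, with 5 lower and 4 higher. Genes of the Z-disc and titin partners were lower for 13 of 23 (56.5%, against 18.6% of all genes) and higher for 0, with a median of -0.59. Under totals 7 were lower and 2 higher. MYOM2, an M-band protein of fast and ventricular fibres, had 1189 to 1587 CPM in RemoLV and 3112 to 3561 CPM in Hyper (log2 fold change -1.25 ± 0.15). NEXN, an actin-binding Z-disc protein, had 343 to 403 CPM against 1119 to 1635 CPM (log2 fold change -1.85 ± 0.22). ACTN2, alpha-actinin of the Z-disc, had 2540 to 2787 CPM against 4204 to 4719 CPM (log2 fold change -0.72 ± 0.17). In tissue sequenced in bulk, fewer cells of a type and less RNA per cell cannot be told apart.

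The genes with the largest changes were mostly of the same kinds. By a rule, the 15 highest and 15 lowest log2 fold changes among separated genes with a symbol and a mean log2 CPM of at least 2 were selected. The highest included, besides those above, CIB4, a calcium-binding protein, which had 40.3, 32.1 and 24.3 CPM in RemoLV against 0 in Hyper, at least 153-fold higher, and lies beside KCNK3 on chromosome 3 (112322446 to 112359212 for KCNK3 and 112415709 to 112457253 for CIB4). CHGA, chromogranin A of secretory granules, had 86.1, 49.6 and 49.0 CPM against 0.275 to 1.21 CPM (log2 fold change 6.26 ± 0.57). SPOCK3 (6.26 ± 0.44), MCTP2 (5.85 ± 0.34), RERG (5.54 ± 0.68), TMEM61 (6.39 ± 0.41) and C14orf132 (5.89 ± 0.48) were others with a fitted log2 fold change, each separated between the groups. ATP8, encoded by the mitochondrion, had 1455, 1298 and 1005 CPM in RemoLV and 0 in Hyper, but its coding sequence overlaps that of ATP6, so that the counting of shared reads makes it uncertain (adjusted p = 0.0425). Its call was lost when any 1 of the 6 libraries was left out, and ATP8 also had 101, 0 and 101.8 CPM in the libraries titled Control.

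On the lower side stood, besides the ventricular genes, PCP4, a calmodulin-binding peptide, with 4.22, 13.1 and 3.92 CPM in RemoLV and 458, 567 and 487 CPM in Hyper (log2 fold change -6.12 ± 0.39, adjusted p = 4.92e-09). DAPL1 had 0 to 0.493 CPM against 18.3 to 33.5 CPM (log2 fold change -6.81 ± 0.42). LOC110255329, a gene of no given name on chromosome 6 (61202808 to 61216114), had 0.226 to 1.55 CPM against 126 to 168 CPM (log2 fold change -7.25 ± 0.70). CCK, cholecystokinin, had 59.1, 33.7 and 4.99 CPM against 378, 520 and 462 CPM (log2 fold change -3.79 ± 0.56). Others on this side were CCDC112 (-5.55 ± 0.47), KRT80 (-5.19 ± 1.18), ZBTB20 (-4.84 ± 0.23), GABRA4 (-4.19 ± 0.38), FAR2 (-4.05 ± 0.33) and WT1 (-3.88 ± 0.46). WT1, a factor of epicardium and of some endothelial cells, had 1.83, 1.07 and 0.0891 CPM in RemoLV and 9.69, 16.1 and 20.7 CPM in Hyper.

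Among 21 tested potassium channel genes, 7 were higher (33.3%, against 17.0% of all genes) and 6 lower (28.6%, against 18.6%) in RemoLV, with a median log2 fold change of -0.02. The subunits of the muscarinic current KCNJ5 (818, 986 and 807 CPM against 165, 110 and 155 CPM, log2 fold change 2.60 ± 0.67) and KCNJ3 (202, 169 and 155 CPM against 118, 73.2 and 58.5 CPM, 1.07 ± 0.22) were both higher. ABCC8, the sulphonylurea receptor SUR1 of atrial ATP-sensitive channels, had 13.9, 11.9 and 8.29 CPM against 0.618, 1.13 and 1.54 CPM (log2 fold change 3.36 ± 0.59). Of 22 sodium and calcium channels and connexins, 13 were higher (59.1%, against 17.0% of all genes) and 1 was lower (4.55%, against 18.6%). The median was 0.96. CACNA2D2, an auxiliary calcium channel subunit, had 9.15, 14.5 and 28.7 CPM against 0.0670 to 0.344 CPM (log2 fold change 6.31 ± 0.59). CACNA1D, the Cav1.3 channel of atria and nodes, had 2.04, 1.52 and 4.55 CPM against 0 to 0.268 CPM (log2 fold change 4.17 ± 0.79). CACNA2D1, the main auxiliary subunit in working muscle, had 114 to 134 CPM and 105 to 205 CPM, which overlapped (-0.24 ± 0.21, not called).

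In calcium cycling, 3 of 18 tested genes were higher (16.7%, against 17.0% of all genes) and 5 lower (27.8%, against 18.6%). ATP2A2, the calcium pump SERCA2 of the sarcoplasmic reticulum, had 5839 to 7436 CPM in RemoLV and 3899 to 4967 CPM in Hyper (log2 fold change 0.65 ± 0.17). S100A1, a calcium sensor richest in ventricle, had 40.04, 85.4 and 25.2 CPM against 430, 600 and 661 CPM (log2 fold change -3.48 ± 0.40). TRDN, triadin of the calcium release unit, had 60.1 to 65.2 CPM against 164 to 246 CPM (log2 fold change -1.72 ± 0.20), and HRC, a luminal calcium-binding protein, had 371 to 390 CPM against 649 to 919 CPM (-1.08 ± 0.15). Under totals, 7 members were higher and 5 lower, against 4123 and 962 of 13552 genes.

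Of 23 tested genes of autonomic receptors and their signalling, 7 were higher (30.4%, against 17.0% of all genes) and 4 lower (17.4%, against 18.6%). Under totals 11 were higher and 3 lower, against 4123 and 962 of 13552 genes. ADRA1A, an alpha-1 adrenergic receptor, had 0, 0 and 1 count in RemoLV and 15.3, 12.6 and 11.06 CPM in Hyper, at least 60.1-fold lower in RemoLV. ADRA1B, its paralog, had 3.24, 0.959 and 2.14 CPM against 22.7, 18.0 and 38.8 CPM (log2 fold change -3.67 ± 0.49). RGS6, which ends muscarinic signals in atria and nodes, had 84.1, 60.3 and 124 CPM against 2.95, 6.32 and 2.68 CPM (log2 fold change 4.49 ± 1.07). GNAS, the stimulatory G protein, had 55.3 to 71.3 CPM against 6.64 to 8.86 CPM (log2 fold change 3.08 ± 0.20), while ADCY6, the adenylyl cyclase downstream, did not pass (388 to 507 CPM and 411 to 483 CPM).

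Natriuretic and wall stress genes did not move one way. NPPB (chromosome 6, 71930374 to 71931843) had 19.6, 47.0 and 26.0 CPM in RemoLV and 0.618, 2.56 and 1.81 CPM in Hyper (log2 fold change 4.22 ± 1.01, adjusted p = 0.00316). FURIN, which cleaves its precursor, had 168 to 194 CPM against 51.7 to 81.9 CPM (log2 fold change 1.45 ± 0.26), whereas CORIN, the atrial peptide convertase, overlapped (132 to 223 CPM and 112 to 182 CPM). MME, neprilysin, which degrades the peptides, had 6.54, 2.31 and 2.05 CPM against 15.9, 19.2 and 18.2 CPM (log2 fold change -2.28 ± 0.63). Of 15 tested wall stress genes, 8 were lower (53.3%, against 18.6% of all genes) and 2 higher (13.3%, against 17.0%), with a median of -0.85. The lower ones included ANKRD1, a stretch-induced titin partner, with 811 to 1504 CPM against 2893 to 3970 CPM (log2 fold change -1.46 ± 0.37).

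Matrix genes were higher in RemoLV. Of 42 collagen chains by symbol, 30 were tested. Of these, 22 were higher (73.3%, against 17.0% of all genes) and 0 lower (18.6% of all genes were lower), with a median log2 fold change of 1.48. The fibrillar chains that form most of the scar and interstitium had the highest levels. COL3A1 (chromosome 15, 93556914 to 93595678) had 6941, 5980 and 5963 CPM in RemoLV and 1914, 667 and 1526 CPM in Hyper (log2 fold change 2.20 ± 0.29, adjusted p = 1.41e-05). COL1A1 had 2052, 1834 and 1876 CPM against 622, 246 and 623 CPM (log2 fold change 1.95 ± 0.33). COL1A2 had 2268, 1832 and 2033 CPM against 578, 215 and 547 CPM (log2 fold change 2.19 ± 0.31). Hyper2 was the lowest of the Hyper libraries in all 3 chains, and no Hyper library reached the RemoLV range. COL21A1 showed the largest change of the family, with 7.39 to 13.3 CPM against 0.527 to 2.75 CPM (log2 fold change 2.55 ± 0.49).

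Genes of the elastic fibre were also higher. Of 17 tested genes, 13 were higher (76.5%, against 17.0% of all genes) and 0 lower (18.6% of all genes were lower), with a median of 1.37. Of them, 5 were DEGs higher in RemoLV, as were 3.51% of all genes. ELN, elastin (chromosome 3, 11214194 to 11245891), had 1229, 2261 and 1918 CPM in RemoLV and 34.1, 27.0 and 71.2 CPM in Hyper (log2 fold change 5.35 ± 0.46, adjusted p = 1.39e-07). LTBP2, a microfibril-bound protein, had 46.9, 67.9 and 74.7 CPM against 4.95, 6.62 and 4.96 CPM (log2 fold change 3.52 ± 0.37). MFAP4 had 186 to 236 CPM against 20.5 to 73.5 CPM (log2 fold change 2.20 ± 0.33). EFEMP1, EFEMP2, EMILIN1 and EMILIN2 did not pass.

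Of 26 tested crosslinking and matricellular genes, 10 were higher (38.5%, against 17.0% of all genes) and 0 lower (18.6% of all genes were lower). Under totals 15 were higher and 0 lower. LOX, the oxidase that crosslinks collagen and elastin, had 58.8, 69.0 and 81.7 CPM in RemoLV and 22.5, 12.4 and 22.1 CPM in Hyper (log2 fold change 1.88 ± 0.26). SPARC, a collagen-binding matricellular protein, had 1651 to 1766 CPM against 474 to 728 CPM (log2 fold change 1.44 ± 0.16), and FN1, fibronectin, 199 to 227 CPM against 34.8 to 94.4 CPM (1.68 ± 0.31). SPP1, osteopontin, had 30.1, 6.60 and 7.22 CPM against 0.206, 0.978 and 1.34 CPM (log2 fold change 4.11 ± 0.71). POSTN, a marker of activated fibroblasts, had 55.9, 48.4 and 220.3 CPM against 99.8, 27.9 and 52.8 CPM, so that the groups overlapped and the difference did not pass (log2 fold change 0.84, adjusted p = 0.157). It passed without RemoLV2 (1.19) and without Hyper1 (1.41), whereas without RemoLV3 its change turned negative and did not pass.

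Basement membrane genes were higher for 14 of 22 (63.6%, against 17.0% of all genes) and lower for 1 (4.55%, against 18.6%). Their changes were smaller (median 0.67), such as LAMB2 with 943 to 1081 CPM against 617 to 691 CPM (log2 fold change 0.65 ± 0.16). Among 12 small leucine-rich proteoglycans, 5 were higher (41.7%, against 17.0% of all genes) and 1 was lower (8.33%, against 18.6%). Under totals 8 were higher and 1 lower. BGN, biglycan, had 164 to 237 CPM against 48.9 to 69.5 CPM (log2 fold change 1.82 ± 0.29), whereas ASPN, asporin, had 47.5 to 54.4 CPM against 89.0 to 145 CPM (-1.12 ± 0.20). Of 44 tested metallopeptidases and their inhibitors, 22 were higher (against 17.0% of all genes) and 2 lower (against 18.6%). MMP2, gelatinase A, had 350, 262 and 286 CPM against 108, 79.3 and 127 CPM (log2 fold change 1.52 ± 0.18), and ADAMTS7, a protease of the extracellular matrix, had 270, 274 and 201 CPM against 28.9, 45.5 and 52.7 CPM (2.55 ± 0.29). TIMP3, a matrix-bound inhibitor, had 449 to 683 CPM and 352 to 559 CPM, which overlapped (0.34 ± 0.24, not called).

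Fibroblast markers moved with the matrix genes. Of 17 markers, all tested, 12 were higher (70.6%, against 17.0% of all genes) and 0 lower (18.6% of all genes were lower). Their summed level was 13900 to 16110 CPM in RemoLV and 2858 to 5386 CPM in Hyper. Most of the sum is collagen, but genes outside the matrix were also higher, such as SCARA5 (39.6, 31.6 and 56.2 CPM against 4.81, 1.96 and 5.36 CPM, log2 fold change 3.38 ± 0.45) and PI16 (117, 134 and 233 CPM against 17.6, 11.6 and 23.5 CPM, 3.20 ± 0.43), both of adventitial fibroblasts. TCF21, LUM, FAP, POSTN and VIM did not pass. The part of fibroblast number in the matrix result was not tested.

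Among 31 tested genes of TGF-beta and BMP signalling, 8 were higher (25.8%, against 17.0% of all genes) and 2 lower (6.45%, against 18.6%), with a median of 0.14. TGFBR2, the type II receptor, had 195 to 205 CPM in RemoLV and 115 to 149 CPM in Hyper (log2 fold change 0.55 ± 0.09), and INHBB, an activin subunit, had 1.96 to 4.68 CPM against 21.2 to 38.0 CPM (-3.16 ± 0.51). Of 9 TGF-beta inhibitors that the study named from these libraries, which makes the list no independent evidence, 6 were higher and 0 lower, among them the proteoglycan FMOD with 30.4 to 39.2 CPM against 8.05 to 11 CPM (log2 fold change 1.91 ± 0.32). In a list of FOXM1 and 5 partners, which the study also named from these libraries, the 5 partners were lower (83.3% of the list, against 18.6% of all genes). Under totals 2 were lower, and FOXM1 itself was not called. EIF5B, a translation initiation factor, had the largest change of the 5, with 57.4 to 63.2 CPM against 193 to 226 CPM (log2 fold change -1.804 ± 0.10).

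Wnt signalling genes were higher for 14 of 25 (56.0%, against 17.0% of all genes) and lower for 1 (4.0%, against 18.6%), with a median of 1.30. Of them, 10 were DEGs higher in RemoLV, as were 3.51% of all genes. DKK3, a secreted Wnt modulator of atrial myocytes, had 894, 794 and 679 CPM in RemoLV and 11.3, 16.3 and 64.8 CPM in Hyper (log2 fold change 4.68 ± 0.54). The decoy receptor SFRP1 had 109, 94.1 and 82.4 CPM against 18.6, 11.7 and 14.7 CPM (log2 fold change 2.67 ± 0.34), and its relative SFRP2 had 6.05, 1.97 and 8.65 CPM against 0, at least 26.3-fold higher. The ligand WNT5A had 40.3, 36.5 and 26.2 CPM against 4.19, 2.71 and 3.22 CPM (log2 fold change 3.34 ± 0.51). Guidance genes of the semaphorin, ephrin and Slit families were higher for 11 of 23 (against 17.0% of all genes) and lower for 3 (against 18.6%). EPHA4, an ephrin receptor, had 17.9 to 21.7 CPM against 0.893 to 1.73 CPM (log2 fold change 3.85 ± 0.47), and the ligand SLIT3 had 40.2 to 54.1 CPM against 5.15 to 6.62 CPM (3.07 ± 0.34). Of 34 growth factor genes of vessel and muscle, 9 were higher (26.5%, against 17.0% of all genes) and 5 lower (14.7%, against 18.6%), and under totals 18 and 4. IGFBP5 had 995 to 1173 CPM against 271 to 320 CPM (log2 fold change 1.93 ± 0.41), and VEGFC, a lymphatic growth factor, 2.99 to 3.92 CPM against 11.8 to 15.8 CPM (-1.98 ± 0.26).

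Complement genes were higher for 11 of 18 (against 17.0% of all genes) and lower for 2 (against 18.6%), with a median of 0.96. C3, the central component, had 217, 167 and 388 CPM in RemoLV and 86.4, 21.8 and 34.4 CPM in Hyper (log2 fold change 2.44 ± 0.60). SERPING1, the C1 inhibitor, had 212 to 280 CPM against 91.4 to 105 CPM (log2 fold change 1.31 ± 0.16). CLU, clusterin, was lower, with 97.2, 70.7 and 223 CPM against 494, 876 and 934 CPM (log2 fold change -2.56 ± 0.82), a call lost without RemoLV1 or without RemoLV2.

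**Figure D3:**
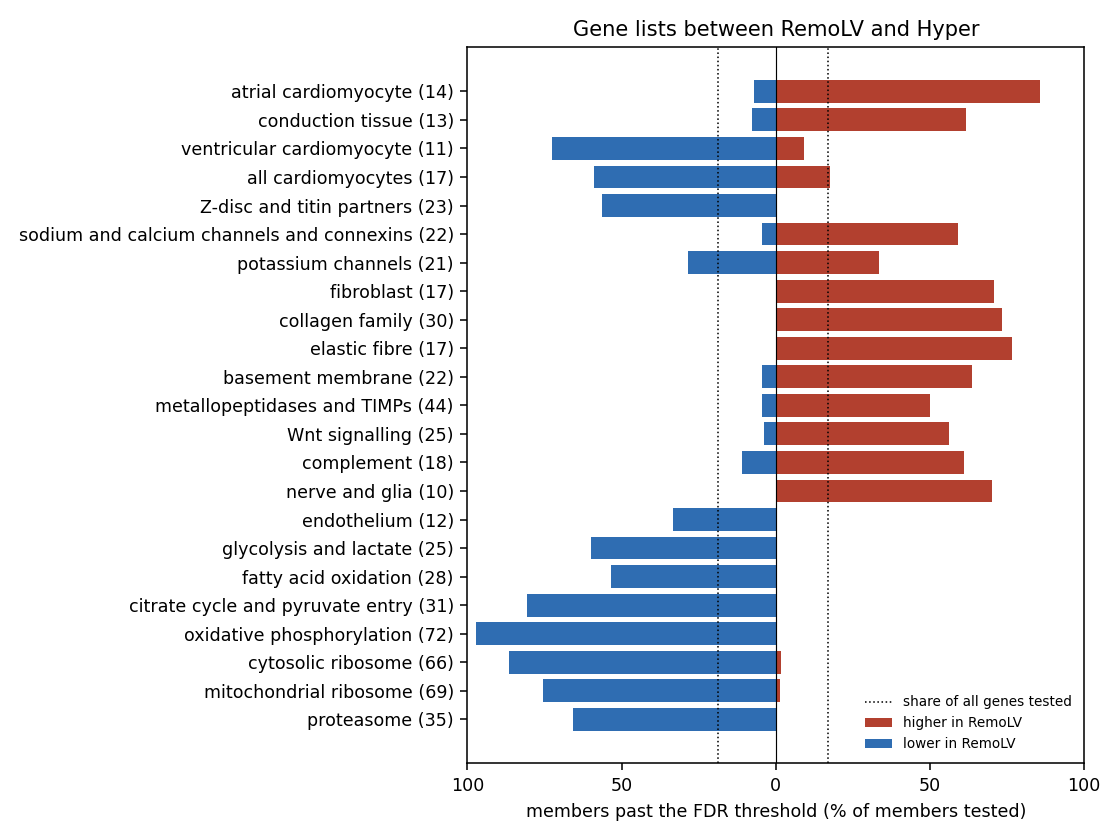
Share of each gene list past the FDR threshold under TMM scaling (% of members tested, their number in brackets), higher in RemoLV to the right and lower to the left. Dotted lines give the share among all genes tested, 17.0% higher and 18.6% lower. Atrial, matrix and Wnt lists lie to the right, and ventricular, energy and ribosome lists to the left.

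Energy genes were lower in RemoLV, by modest amounts. Of 72 nuclear genes of oxidative phosphorylation, 70 were lower and 0 higher (18.6% of all genes were lower), with a median log2 fold change of -0.76. Under totals 46 were lower and 0 higher, with a median of -0.42. ATP5F1B, a catalytic subunit of ATP synthase, had 2317 to 2943 CPM in RemoLV and 3370 to 4052 CPM in Hyper (log2 fold change -0.48 ± 0.13). COX6A2, the striated muscle form of a cytochrome c oxidase subunit, had 232 to 285 CPM against 484 to 794 CPM (log2 fold change -1.43 ± 0.20), and NDUFB1, of complex I, 82.5 to 94.3 CPM against 206 to 267 CPM (-1.42 ± 0.14). The share of counts on the 13 genes of the mitochondrial chromosome was 17.3% to 21.2% in RemoLV and 18.6% to 26.2% in Hyper, which overlapped.

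Fuel use showed the same side. In the citrate cycle and pyruvate entry, 25 of 31 genes were lower (80.65%, against 18.6% of all genes) and 0 higher, with a median of -0.50. Under totals 7 were lower and 1 higher. Of 28 fatty acid genes, 15 were lower (53.6%, against 18.6% of all genes) and 0 higher, and under totals 7 and 0. FABP3, the heart fatty acid-binding protein, had 310, 368 and 182 CPM in RemoLV and 851, 1193 and 1217 CPM in Hyper (log2 fold change -1.92 ± 0.22). Of 25 glycolysis genes, 15 were lower (60.0%, against 18.6% of all genes) and 0 higher, and under totals 11 were lower and 5 higher. SLC2A4, the insulin-regulated glucose transporter, had 93.0, 73.9 and 68.6 CPM against 225, 321 and 399 CPM (log2 fold change -2.005 ± 0.17), and HK2, a hexokinase, 1.20 to 1.47 CPM against 4.74 to 18.2 CPM (-3.06 ± 0.47). BDH1, which oxidises ketone bodies, had 20.3, 35.2 and 34.0 CPM against 250.0, 266 and 216 CPM (log2 fold change -3.03 ± 0.19). CKM and CKMT2, the muscle creatine kinases, had log2 fold changes of -1.86 ± 0.19 and -1.98 ± 0.22. GATM, which makes the creatine precursor, was higher (1.50 ± 0.30).

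Ribosomal and proteasomal genes were lower by less than 1 on the log2 scale at the median. Cytosolic ribosomal proteins were lower for 57 of 66 (86.4%, against 18.6% of all genes) and higher for 1 (1.515%, against 17.0%), with a median of -0.57. Under totals 27 were lower and 3 higher. Mitochondrial ribosomal proteins were lower for 52 of 69 (75.4%, against 18.6%) and higher for 1 (1.45%, against 17.0%), with a median of -0.60. Under totals 20 were lower and 2 higher. Proteasome genes were lower for 23 of 35 (65.7%, against 18.6%) and higher for 0, with a median of -0.42. Under totals 4 were lower and 1 higher. RPL3L, the ribosomal protein of striated muscle, stood out from its list, with 42.4, 66.5 and 52.0 CPM in RemoLV against 242, 260.1 and 256 CPM in Hyper (log2 fold change -2.23 ± 0.18). RPS24 had 390 to 446 CPM against 829.7 to 981 CPM (log2 fold change -1.13 ± 0.11).

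Ribosomal protein genes have short transcripts, and transcript length moved with the result. Over the 11885 tested genes with a RefSeq transcript (94.0% of those with a symbol), the quintile with transcripts of 204 to 1902 bases had a median log2 fold change of -0.21, with 32.3% of genes lower and 11.01% higher. The quintile with the longest transcripts had a median of 0.11, with 14.7% lower and 20.7% higher. By GC content, the lowest quintile (31.9% to 42.4% GC) had 21.7% lower and 9.24% higher, and the highest quintile (60.2% to 76.6%) 12.4% lower and 25.1% higher. The median transcript length was 762 bases in the cytosolic ribosome list and 1348 bases in the mitochondrial one. Of the 72 oxidative phosphorylation genes only 46 had a length, too few for this check. The part of length and GC content in the results on energy and ribosome genes was not tested.

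**Figure D4:**
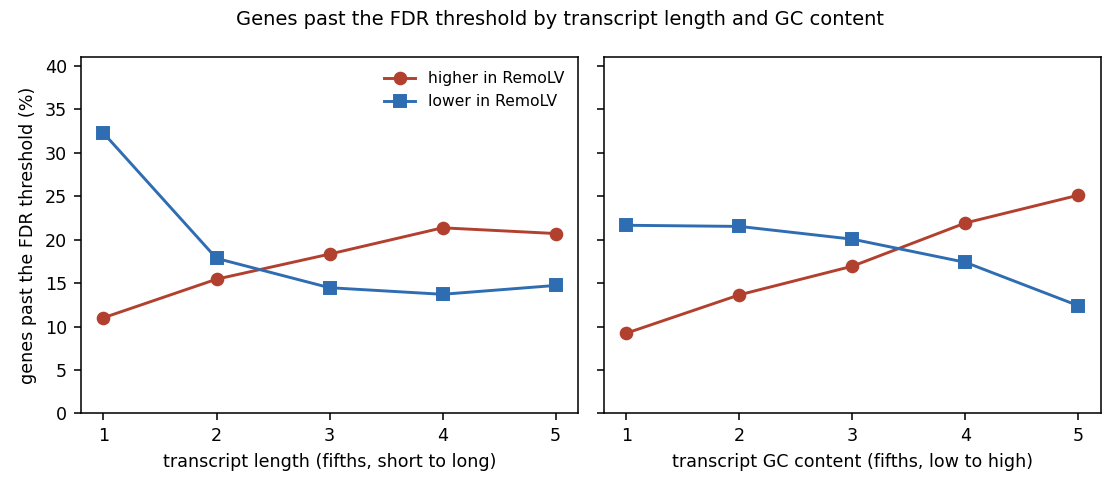
Share of genes past the FDR threshold (%) in quintiles of transcript length (left) and of GC content (right), red for genes higher and blue for genes lower in RemoLV. In the shortest quintile 32.3% of genes are lower and 11.01% higher.

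Markers of other cell types differed by list. Endothelial markers were lower for 4 of 12 (33.3%, against 18.6% of all genes) and higher for 0 (17.0% of all genes were higher), with a median of -0.32. Under totals 1 was lower and 2 higher. Their summed level was 887 to 1022 CPM in RemoLV and 1053 to 1287 CPM in Hyper. PECAM1, which marks all endothelium, had 187 to 244 CPM against 290.3 to 316 CPM (log2 fold change -0.54 ± 0.13), a call that totals did not keep. Smooth muscle markers summed to 7586 to 7978 CPM and 5988 to 8017 CPM, with 2 of 12 higher and 2 lower (16.7% each, against 17.0% and 18.6% of all genes). Pericyte markers summed to 789 to 837 CPM and 976 to 1038 CPM, with 1 of 10 higher (10%, against 17.0% of all genes) and 3 lower (30%, against 18.6%), and under totals 2 higher and 1 lower. KCNJ8, a potassium channel subunit of pericytes, was lower (65.2 to 83.9 CPM against 124 to 157 CPM, -0.88 ± 0.16). Epicardial and mesothelial markers summed to 56.3 to 82.6 CPM and 56.6 to 75.0 CPM and lymphatic markers to 50.7 to 83.2 CPM and 59.0 to 104 CPM. Adipocyte markers summed to 675 to 951 CPM and 1797 to 2591 CPM, mostly through LPL, lipoprotein lipase that myocytes also express, with 395 to 533 CPM against 1435 to 2280 CPM (log2 fold change -2.03 ± 0.24). Of the 9 adipocyte markers tested, LPL and PLIN4 were lower (22.2%, against 18.6% of all genes), and PPARG (0.79) and LIPE (1.41) were higher (22.2%, against 17.0%). The median log2 fold change was 0.80. The PPARG call was lost without RemoLV1, Hyper2 or Hyper3.

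Nerve and glial markers were higher in RemoLV for 7 of 10 (70.0%, against 17.0% of all genes) and lower for 0 (18.6% of all genes were lower). They summed to 269 to 309 CPM against 182 to 239.6 CPM. NGFR, a neurotrophin receptor of Schwann cells, had 11.7, 4.06 and 4.28 CPM in RemoLV and 0.376 to 0.469 CPM in Hyper (log2 fold change 3.96 ± 0.62). NCAM1 made up most of the sum, with 231 to 259 CPM against 140 to 185 CPM. Endocardial and valve markers summed to 239 to 261 CPM and 181 to 209 CPM, with 5 of 11 higher (45.45%, against 17.0% of all genes) and 1 lower (9.09%, against 18.6%).

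Macrophage markers summed to 335 to 352 CPM in RemoLV and 200.2 to 305 CPM in Hyper. The complement chains C1QA, C1QB and C1QC were higher (for C1QA 53.9, 53.7 and 41.7 CPM against 20.0, 15.3 and 24.2 CPM, log2 fold change 1.33 ± 0.30), and the scavenger receptor CD163 was lower (41.3 to 46.5 CPM against 59.1 to 106 CPM, -0.97 ± 0.31). The CD163 call was lost without RemoLV1, RemoLV2 or Hyper1 and under totals. Lymphocyte markers summed to 24.3 to 31.6 CPM and 14.2 to 32.2 CPM, granulocyte and mast cell markers to 19.7 to 53.8 CPM and 42.4 to 56.9 CPM, and red cell markers to 11.05 to 43.1 CPM and 21.9 to 122 CPM, with overlap in each. Proliferation markers were higher for 3 of 18 (16.7%, against 17.0% of all genes) and lower for 0, and under totals 6 were higher and 0 lower. MKI67 and TOP2A, which mark dividing cells, had 15.3, 6.60 and 1.87 CPM and 16.1, 9.02 and 3.39 CPM in RemoLV against 1.79 to 5.30 CPM and 2.71 to 6.03 CPM in Hyper. Both overlapped between the groups, and both calls were lost when RemoLV1, RemoLV2, Hyper1 or Hyper2 was left out. In the skeletal muscle list, MYOD1, MYOG and PAX7 had 0 counts in all 6 libraries.

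Of 21 tested heat shock genes, 10 were lower (47.6%, against 18.6% of all genes) and 0 higher, with a median of -0.81. Under totals 7 were lower and 1 higher. CRYAB, the small heat shock protein of the Z-disc, had 618 to 810.5 CPM in RemoLV and 1687 to 2398 CPM in Hyper (log2 fold change -1.52 ± 0.32), and HSPB6 246 to 394 CPM against 1138 to 1584 CPM (-2.11 ± 0.29). Of 14 glucocorticoid-responsive genes, 6 were lower (42.9%, against 18.6% of all genes) and 0 higher, whereas under totals 3 were lower and 3 higher. FKBP5, a co-chaperone of the glucocorticoid receptor, had 66.1, 41.4 and 74.3 CPM against 309, 232 and 222 CPM (log2 fold change -2.07 ± 0.39). PER1 and PDK4, which respond to the same hormones, overlapped between the groups. Immediate-early genes were lower for 2 of 23 (8.70%, against 18.6% of all genes) and higher for 0, the lower being JUN and KLF4, and both calls were lost under totals and with a replicate block. The JUN call was also lost without RemoLV1, RemoLV3, Hyper1 or Hyper2, and the KLF4 call without RemoLV1, RemoLV2, RemoLV3, Hyper1 or Hyper3. Among 19 clock genes, 3 were higher (15.8%, against 17.0% of all genes) and 4 lower (21.1%, against 18.6%), and under totals 5 were higher and 2 lower. BHLHE41, a clock repressor, had 12.7 to 19.6 CPM against 1.21 to 1.66 CPM (log2 fold change 3.503 ± 0.29).

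The remaining lists had fewer calls or calls in both directions, against 17.0% higher and 18.6% lower among all genes. Their counts under totals stand against 4123 higher and 962 lower of 13552 genes. For HIF-1 targets 5 of 22 were higher and 3 lower (under totals 9 and 2), with VEGFA at 173 to 227 CPM in RemoLV and 165 to 217 CPM in Hyper. For NF-kappaB targets and cytokines 2 of 21 were higher and 4 lower (under totals 3 and 3), and for interferon-stimulated genes 1 and 2 of 21 (under totals 5 and 2). For p53 targets 1 of 16 was higher and 2 were lower, for the integrated stress response 4 and 1 of 16, and for antioxidant and iron genes 2 and 5 of 21, which under totals became 5 and 1. FTH1, ferritin heavy chain, had 1167 to 1347 CPM and 1258 to 1354 CPM. In the retinoic acid pathway 5 of 17 were higher and 1 was lower (under totals 8 and 1), with CRABP1, a retinoid carrier, at 5.49, 7.05 and 2.32 CPM against 0.0687 to 0.469 CPM (log2 fold change 4.52 ± 0.82). In the renin-angiotensin and endothelin list 2 of 11 were higher and 4 lower, and under totals 2 and 0. Of 22 FoxO targets 1 was higher and 7 were lower, and under totals 4 and 5. Of 20 genes of the intercalated disc 4 were higher and 7 lower, and under totals 8 and 2. PKP2, a desmosomal plakophilin, had 159 to 196 CPM against 307 to 440.4 CPM (log2 fold change -1.11 ± 0.19).

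The 13 libraries outside the comparison were placed on the scale from the Hyper mean (0) to the RemoLV mean (1) for the 668 DEGs, as a description, since the scale was chosen from the 6 libraries. Median positions of the 3 libraries titled Control, which the authors' table names RemoLV, were -0.02 to 0.04 for the genes higher and 0.01 to 0.05 for those lower in RemoLV. The 10 DOX and MYO libraries lay between 0.14 and 0.31. For 277 DEGs (41.5%), among them MYL2, MYL4, SLN, KCNK3 and PCP4, all 13 lay on the Hyper side of the midpoint. For 46 DEGs (6.89%), the 3 Control libraries lay on the Hyper side and all 10 DOX and MYO libraries on the RemoLV side.

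In this last class, ZBTB20, a zinc finger repressor, had 3.52, 3.10 and 3.65 CPM in RemoLV, 99.8, 108 and 87.2 CPM in Hyper, 85.4 ± 5.03 CPM in Control (SD, n = 3) and 1.13 to 2.88 CPM in DOX and MYO. NFIB, a nuclear factor I, had 14.8 to 25.1 CPM in RemoLV, 164 to 229.9 CPM in Hyper, 142 ± 34.9 CPM in Control and 7.92 to 14.7 CPM in DOX and MYO. HMBOX1, CDK6, DGKH, NFAT5, ANKRD12 and AAK1 likewise had lower levels in RemoLV and in DOX and MYO than in Hyper and in the Control mean. These genes were named for their pattern after it was seen. GNAS and NPPB were higher in RemoLV and in DOX and MYO, with NPPB at 7.55 to 202 CPM there and 1.46 ± 1.33 CPM in Control. HAND1, HEY2 and IRX4 had in DOX and MYO 22.0 to 32.9, 46.5 to 121 and 19.3 to 27.7 CPM, so that none fell to the RemoLV level.

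**Figure D5:**
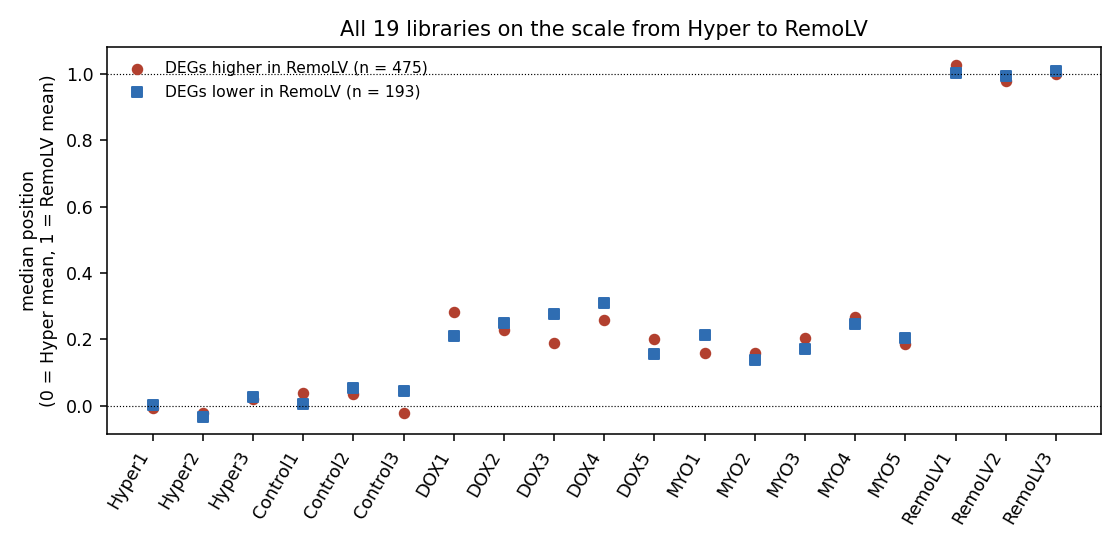
Median position of each of the 19 libraries on the scale from the Hyper mean (0) to the RemoLV mean (1), over 475 DEGs higher (red circles) and 193 DEGs lower (blue squares) in RemoLV. Control libraries lie near 0 and DOX and MYO libraries between 0.14 and 0.31.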

How the data were processed

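Counts of the 19 libraries were used. Per the labels and the study's methods, the authors aligned read pairs to Sscrofa11.1 with STAR, counted them per Ensembl gene with HTSeq (0.11.1 in the submitters' processing notes) and deposited whole-number counts per gene without normalization. The authors' table of 14744 genes holds log2-like values, deposited after transformation and scaling for library size, which were used only to match names. Its 8 columns of fold changes and adjusted p-values are the authors' own comparisons and were not used.

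In R 4.3.3, genes kept by filterByExpr were fitted with edgeR 4.0.16 (TMM, quasi-likelihood test, 1 model of 5 groups, no block, Benjamini-Hochberg over 13552 genes), and DESeq2 1.42.0 was an alternative. CPM uses TMM-scaled totals. Where no library of a group exceeded 3 counts of a gene, the fold is given as a bound, with 3 counts put in each of that group's libraries, and covers counting error only. On simulated data with 200 changed genes among 13552, 66% of those changed by 1 and 96% of those changed by 2 on the log2 scale were recovered, with 6 false calls. The changed genes had a mean of at least 2 CPM, changed equally often in each direction, and all others were unchanged. The simulation thus does not cover genes of lower level or the choice of scaling. Where the text says under totals, library totals replaced TMM, and 4123 of 13552 genes were then higher and 962 lower. Symbols were paired with 16046 of 25879 rows, coordinates come from RefSeq on Sscrofa11.1, and 30 symbols have more than 1 row, of which the higher row was used.

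Genes were named by a rule: the 15 largest changes in each direction, up to 4 called members by change and 2 by level in each of 63 lists, and 20 fixed chamber and matrix genes. Some genes that the rule selects are not reported here. Further members appear where a list's exceptions are named, and CPNE5 was added in this way. The comparison, the lists and the rule were chosen with earlier results of these data known.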

Additional observations from a re-analysis of the deposited data

Results flagged for a closer look

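In the groups of 5 libraries, DOX and MYO, the reported chamber, matrix and most changed genes were screened for a library far from the other 4, in 69 sets of values, of which chance would flag about 1 in 20. In 9 sets the highest or lowest library lay apart. ATP8 had 735 CPM in DOX3 (other DOX libraries 0 to 0.254 CPM) and 597 CPM in MYO2 (other MYO libraries 0 to 1.90 CPM), and it was high in the 3 RemoLV libraries and present in 2 of the 3 Control libraries (101 and 101.8 CPM). NPPB had 202 CPM in MYO2, where the other MYO libraries had 14.4 to 37.8 CPM. MYL4 had 3.13 CPM in DOX3 (others 9.58 to 11.9 CPM). RERG had 7.65 CPM in DOX5 (others 1.13 to 2.04 CPM). PCP4 had 186 CPM in MYO3 (others 276 to 305 CPM). KCNJ3 had 79.7 CPM in MYO1 (others 63.0 to 67.7 CPM), and DAPL1 had 31.3 CPM in MYO4 (others 23.2 to 25.4 CPM). At a level under 2 CPM, KCNK3 had 0.999 CPM in DOX1 (others 0.0611 to 0.252 CPM). The libraries titled DOX5 and MYO1 carry each other's group in the authors' table. RemoLV and Hyper have 3 libraries each and were not screened.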

How the results depend on the processing

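Of 16 alternatives, 15 gave values for single genes, which were followed for 239 genes, all past the FDR threshold except POSTN. None of those past it reversed its direction, and 190 of the 239 kept their side of the threshold in all of those run. POSTN became -0.21 without RemoLV3, and the direction of other genes not past the threshold was not followed. With library totals in place of TMM, 4123 genes were higher and 962 lower at the FDR threshold, and with totals that leave out the mitochondrial genes, chosen after seeing the data, 4053 and 1200. With at least 10 counts in each of the 6 libraries, 249 DEGs were found, 156 higher and 93 lower, since fewer genes were tested. Under the names of the authors' table, where other libraries are called RemoLV, RemoLV vs. Hyper gave 0 DEGs and 0 genes at the FDR threshold in edgeR, with 2465 at an unadjusted p under 0.05. The same 6 libraries read there as Control vs. Hyper gave 676 DEGs, and DESeq2 gave 681. Without 1 library in turn, the DEGs numbered 667 to 798 (459 to 594 higher, 194 to 208 lower) and the genes at the FDR threshold 3889 to 4645 (1858 to 2239 higher, 2031 to 2406 lower). Replicate numbers did not pair the libraries, since deviations of same-numbered libraries had correlations of -0.0371, 0.0099 and -0.0608, and a replicate block gave 663 DEGs and 4493 genes at the FDR threshold. Group, wall and names cannot be told apart with these files, and 3 libraries per group limit the precision.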
